A study of Mus musculus with 30 samples.

Results

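The glycolysis enzymes described here are 10 genes that together cover most steps from glucose to lactate: Hk1, Hk2, Pfkl, Aldoa, Tpi1, Gapdh, Pgk1, Eno1, Pkm and Ldha. They were taken by gene symbol from a mouse expression table of 24888 rows and 30 libraries, and each of the 10 had 1 row. All 10 were among the 11759 genes kept for testing. The lowest value of any of them in any library was 1.62 FPKM, of Hk1, so none entered the test through 1 high group alone.

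The RNA came from cells of the caudal lumbar spinal cord of C57BL/6J mice, selected with magnetic beads against CD11b after PBS perfusion, manual dissociation and removal of myelin. CD11b is an integrin chain carried by microglia, the resident macrophages of the cord, and also by neutrophils and monocytes. The method for the libraries, Smart-Seq2, copies whole transcripts from small amounts of RNA. Values are FPKM, that is fragments scaled by the length of the transcript and the number of fragments mapped in the library, so levels of different genes can be set side by side. Between libraries they are compared as deposited, and results that change with another scaling are named.

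Control animals gave 9 libraries. Of these, 2 had no treatment or injury (naive, replicates 1 and 2), 4 had saline on the fixed schedule (replicates 3 to 6) and 3 had saline on the escalating schedule (replicates 7 to 9). Injured animals gave 14 libraries, 2 per group: transection of the sciatic nerve (SNT) at 1, 2, 4 and 7 days after injury (dpi), chronic constriction of it (CCI) at 2 and 7 dpi, and the spared nerve model (SNI) at 7 dpi. The 7 morphine libraries are from animals on the fixed (4) or the escalating (3) schedule. No group is labelled as sham-operated, and no allele, transgene, age, sex, morphine dose or number of pooled animals is given in the sources used here. The labels also do not say that each library is a separate animal, so the p-values measure the spread between these libraries, which may be partly technical. The table gives no counts, so the depth behind each value is unknown.

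Glycolysis splits glucose into pyruvate in the cytosol, with a small yield of ATP and NADH, and lactate dehydrogenase turns pyruvate into lactate and restores the NAD+ that the pathway needs. Hexokinase, phosphofructokinase and pyruvate kinase catalyse the steps that are in practice irreversible and carry most of the regulation, while the enzymes between them run near equilibrium. Macrophages and microglia can raise glycolytic enzymes when activated, in part through the hypoxia-inducible factor HIF-1, which binds sites with the core ACGTG or GCGTG.

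The libraries fell into 2 sets by Cst3, the gene of the secreted protease inhibitor cystatin C and one of the most abundant microglial transcripts. In 14 libraries Cst3 was at 10120 to 20827 FPKM, and in the other 16 it was at 39503 to 95123 FPKM, with none between. The low set held both naive libraries, SNT 7 dpi replicate 2, all CCI, SNI and fixed-morphine libraries, and escalating-morphine replicate 1. The high set held all 7 saline libraries, all SNT libraries of 1, 2 and 4 dpi, SNT 7 dpi replicate 1, and escalating-morphine replicates 2 and 3. Across all genes, only 7 of the 30 libraries correlated best with a library of their own group, and SNT 7 dpi replicate 2 was nearest to CCI 2 dpi replicate 1 (r = 0.988) while its correlation with SNT 7 dpi replicate 1 was 0.789. The number of genes at 1 FPKM or more was 8005 in SNT 1 dpi replicate 1, 8466 in SNT 7 dpi replicate 1 and 8763 in SNT 2 dpi replicate 2, and reached 10427 elsewhere.

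All 14 microglial markers listed for the check were present in each library, with a summed level of 11592 to 21414 FPKM, P2ry12 at 562 to 1550 FPKM and Tmem119 at 262 to 1443 FPKM. Neutrophil markers were present as well. The summed level of the 12 found in the table was 5704 to 63215 FPKM in the 9 controls, highest in escalating-saline replicate 9, against 1845 to 20979 FPKM in the injured and morphine groups. Summed levels of monocyte markers were 298 to 2572 FPKM in controls. Markers of T and NK cells, red blood cells, border macrophages, oligodendrocyte precursors, and endothelial and mural cells each summed to under 37 FPKM in every library. Markers of neurons summed to at most 63.9 FPKM, those of astrocytes to at most 110 and those of oligodendrocytes to 69.8 to 262. In such bulk samples fewer cells of a type and less RNA per cell cannot be told apart.

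The promoters of 5 members are shown, chosen by correlation across the libraries. Pkm and Eno1 were the pair of members with the highest correlation, and Pgk1 and Ldha the next. Hk2 had a correlation of -0.03 with Ldha. The sequences, like the gene positions given further on, are from RefSeq on GRCm38.p6, the assembly that the name mm10 denotes, and each is the first window listed for the gene, with 250 bases before and 50 after the start of transcription, on the strand of the gene. Capitals mark ACGTG or its reverse complement CACGT.
Pkm, chr9:59656326-59656625 (plus strand): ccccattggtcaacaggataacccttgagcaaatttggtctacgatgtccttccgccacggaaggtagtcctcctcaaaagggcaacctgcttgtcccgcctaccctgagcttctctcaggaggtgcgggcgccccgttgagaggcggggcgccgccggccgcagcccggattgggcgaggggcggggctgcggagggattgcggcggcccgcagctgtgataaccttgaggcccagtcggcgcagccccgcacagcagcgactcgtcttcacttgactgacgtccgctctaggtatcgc
Eno1, chr4:150236458-150236757 (plus strand): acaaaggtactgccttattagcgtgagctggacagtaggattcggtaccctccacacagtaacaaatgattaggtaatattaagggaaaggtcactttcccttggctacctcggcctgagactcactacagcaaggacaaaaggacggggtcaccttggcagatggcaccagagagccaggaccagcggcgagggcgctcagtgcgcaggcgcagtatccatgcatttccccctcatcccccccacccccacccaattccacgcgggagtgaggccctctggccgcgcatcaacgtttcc
Pgk1, chrX:106186850-106187149 (plus strand): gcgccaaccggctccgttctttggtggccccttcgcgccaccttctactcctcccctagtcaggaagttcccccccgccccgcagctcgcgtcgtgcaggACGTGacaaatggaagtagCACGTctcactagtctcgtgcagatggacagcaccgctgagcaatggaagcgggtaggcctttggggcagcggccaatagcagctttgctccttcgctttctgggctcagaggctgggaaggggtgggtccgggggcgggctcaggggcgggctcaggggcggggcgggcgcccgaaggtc
Ldha, chr7:46845554-46845853 (plus strand): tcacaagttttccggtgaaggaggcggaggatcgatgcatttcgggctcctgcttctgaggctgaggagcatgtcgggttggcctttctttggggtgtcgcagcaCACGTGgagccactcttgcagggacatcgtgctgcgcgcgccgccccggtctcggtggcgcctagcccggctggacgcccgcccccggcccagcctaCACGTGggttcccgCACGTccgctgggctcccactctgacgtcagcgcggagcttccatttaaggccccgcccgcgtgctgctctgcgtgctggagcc
Hk2, chr6:82774405-82774704 (minus strand): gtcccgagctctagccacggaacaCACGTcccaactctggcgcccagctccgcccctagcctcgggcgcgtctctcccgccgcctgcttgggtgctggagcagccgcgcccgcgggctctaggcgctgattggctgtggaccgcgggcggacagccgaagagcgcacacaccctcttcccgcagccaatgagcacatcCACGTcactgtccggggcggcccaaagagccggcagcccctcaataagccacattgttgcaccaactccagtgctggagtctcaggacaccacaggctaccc

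Searched on both strands, ACGTG was in the first windows of 4 of the 10 members, Hk2, Gapdh, Pgk1 and Ldha, against 19.7% of the 27025 first windows of all genes. Ldha held 5 matches, 4 of them in 2 copies of the palindrome CACGTG, which contains ACGTG on either strand and is in 7.24% of first windows. GCGTG, which can overlap ACGTG only at its ends, was in 4 of 10, namely Pfkl, Gapdh, Eno1 and Ldha, against 32.5%. The GC box GGGCGG was in 6 of 10 against 35.9%. These matches describe the letters in the windows and say nothing of binding. Across the libraries Ldha and Hk2, both with ACGTG, had a correlation of -0.03, and Ldha and Pgk1, also both with it, one of 0.88. Pkm and Eno1, both without it, had one of 0.92. The 5 promoters shown were chosen by such correlations, and a link between motif and correlation was not tested.

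Per unit of transcript length the most abundant members were Eno1, Aldoa and Pkm, followed by Ldha, and the least abundant was Hk1. Mean levels over the 30 libraries were 239 ± 77.8 FPKM (SD) for Eno1, 235 ± 51.9 for Aldoa and 222 ± 102 for Pkm, which lie within each other's spread. Ldha followed at 144 ± 44.3 FPKM, then Gapdh at 80.2 ± 25.3, Tpi1 at 69.9 ± 23.6 and Pgk1 at 51.1 ± 17.5. Hk2 at 28.0 ± 9.94 FPKM and Pfkl at 22.5 ± 8.22 came next, and Hk1 was lowest at 9.32 ± 4.51. Within 1 SD each gene in this order overlapped the next, except Pfkl and Hk1. Hk1, Hk2 and Pfkl, which stand at the entry of the pathway, thus each had a lower mean per length than the 7 members after them. Pkm, at its regulated end, was among the most abundant. This order leaves out Hk3, which is not a member and made up 54.5% of hexokinase RNA on average, so it does not rank the hexokinase step as a whole. The least variable member was Aldoa (SD on the log2 scale 0.33 over all libraries), and the most variable were Hk1 and Pkm (0.75 each). Most of that spread lay within groups: the SD within groups was 0.69 for Hk1, 0.62 for Pkm and 0.32 for Aldoa.

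**Figure D1:**
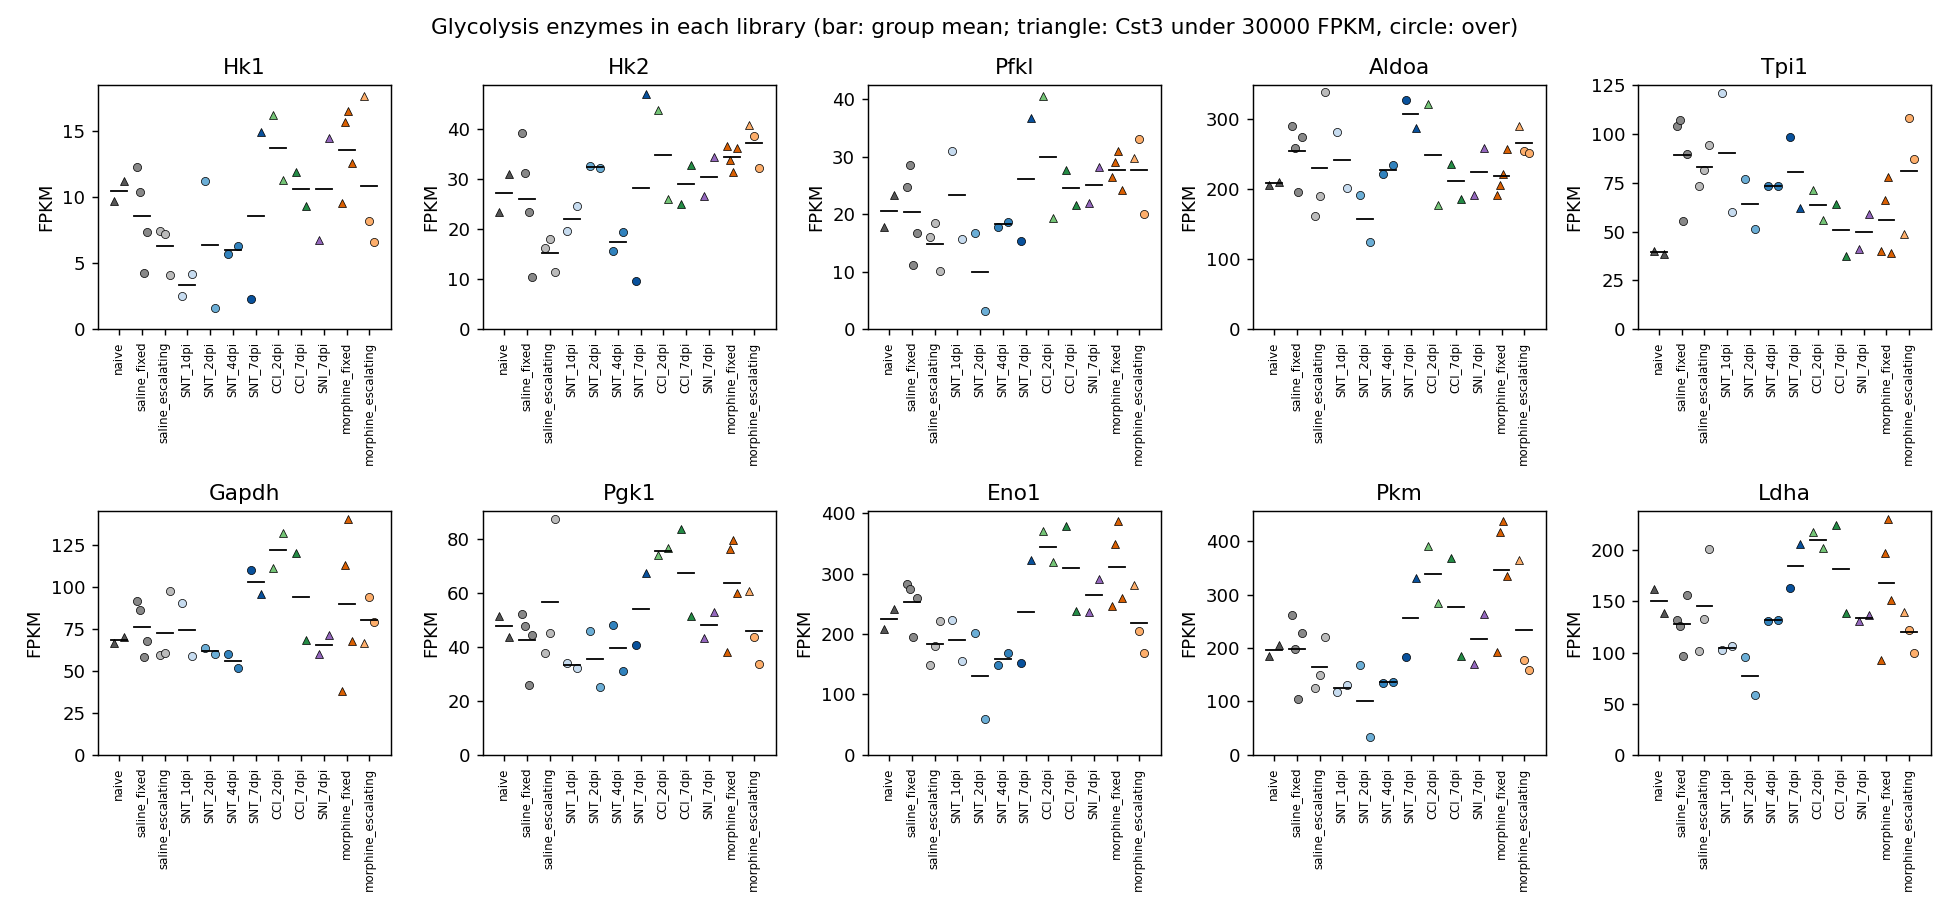
FPKM (linear axis from 0) of each of the 10 members in each of the 30 libraries, in the order of the pathway; each point is 1 library, bars are group means, triangles are libraries with Cst3 under 30000 FPKM and circles those over it. Both CCI 2 dpi libraries lie above all 9 controls in Gapdh, Eno1, Pkm and Ldha, and SNT 2 dpi replicate 2 is the lowest library of 30 in 7 of the 10 panels. The share of all genes that are lowest in that library was not counted.

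Hk1 and Hk2 encode hexokinases, which trap glucose in the cell as glucose phosphate. Hk1 (chr10:62268855-62379920) was at 4.13 to 12.3 FPKM in the 9 controls, with a median of 7.45. It was at 2.53 and 4.18 FPKM at SNT 1 dpi, 11.2 and 1.62 at 2 dpi, 5.70 and 6.29 at 4 dpi, and 2.30 and 14.9 at 7 dpi. The SNT replicates of 2 and 7 dpi thus differed more from each other than the controls did. Hk1 was at 16.2 and 11.3 FPKM at CCI 2 dpi, 11.9 and 9.36 at CCI 7 dpi, and 6.75 and 14.5 at SNI 7 dpi, each group reaching into the range of the controls. It was at 9.54, 15.7, 16.5 and 12.6 FPKM under fixed morphine, against 12.3, 10.4, 4.24 and 7.37 under fixed saline.

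Hk2 (chr6:82725025-82774454), the isoenzyme best known for induction in activated and growing cells, was at 10.4 to 39.1 FPKM in controls, with a median of 23.3. Escalating morphine gave 40.7, 38.6 and 32.2 FPKM against 16.1, 18.0 and 11.4 under escalating saline, with no overlap. Fixed morphine gave 36.6, 33.7, 31.3 and 36.1 FPKM against 39.1, 31.1, 23.3 and 10.4 under fixed saline, where the saline libraries spread over and beyond the morphine values. The 2 libraries of SNT 7 dpi held the lowest and the highest Hk2 of all 30, at 9.52 and 46.9 FPKM.

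Pfkl (chr10:77986947-78009807) encodes the liver-type subunit of phosphofructokinase, which commits sugar to the pathway. It was at 10.1 to 28.5 FPKM in controls, with a median of 17.7. It was at 16.7 and 3.18 FPKM at SNT 2 dpi and at 40.6 and 19.4 at CCI 2 dpi, and in both groups 1 replicate lay within the controls. Under escalating morphine it was at 29.8, 33.1 and 20.1 FPKM against 16.0, 18.5 and 10.1 under escalating saline, again without overlap.

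Aldoa (chr7:126795234-126800994) encodes aldolase A, which splits fructose bisphosphate into triose phosphates. It ranged from 161 to 338 FPKM in controls and from 124 to 327 in all other groups, and no injury or morphine group lay apart from its controls. Tpi1 (chr6:124810586-124814158), whose product interconverts the triose phosphates, was at 40.1 and 38.5 FPKM in the naive libraries, at 104, 107, 55.4 and 90.0 under fixed saline and at 73.6, 81.8 and 94.5 under escalating saline. Naive libraries were therefore below all 7 saline libraries. Tpi1 was at 39.9, 66.3, 77.9 and 38.9 FPKM under fixed morphine and at 48.6, 108 and 87.3 under escalating morphine. In both cases the range overlapped that of the matching saline group.

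Gapdh (chr6:125161852-125166467), which oxidises glyceraldehyde phosphate and yields NADH, is often used as a reference gene. It was at 58.2 to 97.1 FPKM in controls, with a median of 67.4. It was at 111 and 132 FPKM at CCI 2 dpi, at 120 and 68.1 at CCI 7 dpi, at 110 and 95.7 at SNT 7 dpi, and at 59.8 and 71.3 at SNI 7 dpi. Of these groups only CCI 2 dpi lay wholly above the controls. Fixed morphine held both extremes of all 30 libraries, 38.0 FPKM in replicate 1 and 140 in replicate 3, with 113 and 67.8 in the other two.

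Pgk1 (chrX:106187100-106203699), whose product makes ATP from bisphosphoglycerate, was at 25.9 to 52.2 FPKM in 8 of the 9 controls and at 87.3 in escalating-saline replicate 9. It was at 73.9 and 76.7 FPKM at CCI 2 dpi, 83.7 and 51.3 at CCI 7 dpi, and 46.0 and 25.1 at SNT 2 dpi. Of the controls only that library lay above the CCI 2 dpi pair. It was also the control library with the highest Aldoa, at 338 FPKM, and with the highest summed neutrophil markers, at 63215 FPKM; the part of those cells in the level was not tested.

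Eno1 (chr4:150236708-150248879) encodes enolase, which makes phosphoenolpyruvate, and Pkm (chr9:59656576-59679372) encodes the muscle-type pyruvate kinase, whose splice forms the table does not separate. Eno1 was at 149 to 283 FPKM in controls, 370 and 319 at CCI 2 dpi, 379 and 239 at CCI 7 dpi, and 202 and 59.7 at SNT 2 dpi. Pkm was at 104 to 261 FPKM in controls, 391 and 285 at CCI 2 dpi, 369 and 186 at CCI 7 dpi, and 169 and 33.7 at SNT 2 dpi. In both genes the CCI 2 dpi pair lay above all controls, and the low value at SNT 2 dpi came from replicate 2 alone. Pkm was at 192, 418, 437 and 334 FPKM under fixed morphine against 261, 199, 104 and 229 under fixed saline, and at 365, 177 and 158 under escalating morphine against 125, 149 and 220 under escalating saline. Under either schedule at least 1 morphine library lay within the saline range.

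Ldha (chr7:46842274-46855627) encodes the lactate dehydrogenase subunit that favours lactate formation. It was at 96.7 to 201 FPKM in controls, with a median of 133. After SNT it was at 102 and 106 FPKM at 1 dpi, 95.6 and 58.3 at 2 dpi, 131 and 132 at 4 dpi, and 163 and 206 at 7 dpi. Both libraries of 2 dpi were below all controls, replicate 1 by about 1 FPKM, and the 7 dpi libraries were the highest of the SNT series. CCI gave 218 and 202 FPKM at 2 dpi, both above all controls though the lower one by under 1 FPKM, and 225 and 139 at 7 dpi. Fixed morphine gave 92.3, 197, 230 and 151 FPKM against 132, 126, 96.7 and 156 under fixed saline.

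The isoenzymes that share a step with the members were read from the same table, as shares of the summed FPKM of the step. Hexokinase RNA was divided between Hk3 (54.5% ± 10.8 of the step, SD, n = 30), Hk2 (34.6% ± 10.5) and Hk1 (10.9% ± 3.67), Hk3 being the hexokinase known from blood and myeloid cells. Pfkl made up 76.2% ± 7.20 of phosphofructokinase RNA, with Pfkm at 16.9% ± 7.10 and Pfkp, the platelet type, at 6.86% ± 3.37. Aldoa made up 90.0% ± 6.29 against its brain form Aldoc, and Eno1 95.5% ± 2.30 against the neuronal Eno2 and the muscle form Eno3. Eno1b, left out because its symbol is repeated, is not counted in the Eno1 share, which would be lower with it. Pklr, the liver and red-cell pyruvate kinase, was under 0.01% of its step in every library, so nearly all pyruvate kinase RNA was Pkm.

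As at the hexokinase step, where Hk3 had the largest mean share, most lactate dehydrogenase RNA came from a gene outside the members. This was Ldhb, the subunit that favours pyruvate formation. Ldha made up 26.3% ± 8.02 of the step over all libraries and 26.5% ± 5.23 in the 9 controls. It made up 15.2% and 20.6% in the SNT 1 dpi libraries, a mean of 16.2% at SNT 2 dpi, and 39.2% and 36.7% at CCI 2 dpi. The CCI 2 dpi pair exceeded the highest control, at 36.4%, by a narrow margin. The largest shares were in CCI 7 dpi replicate 1, at 41.8%, and fixed-morphine replicate 3, at 41.6%. The other CCI 7 dpi library was at 21.7%, and the other fixed-morphine libraries were at 16.3%, 37.2% and 30.4%. Hexokinase shares moved most in SNT 2 dpi replicate 2, where Hk2 made up 73.1% of the step, with Hk1 and Hk3 at 1.62 and 10.2 FPKM.

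**Figure D2:**
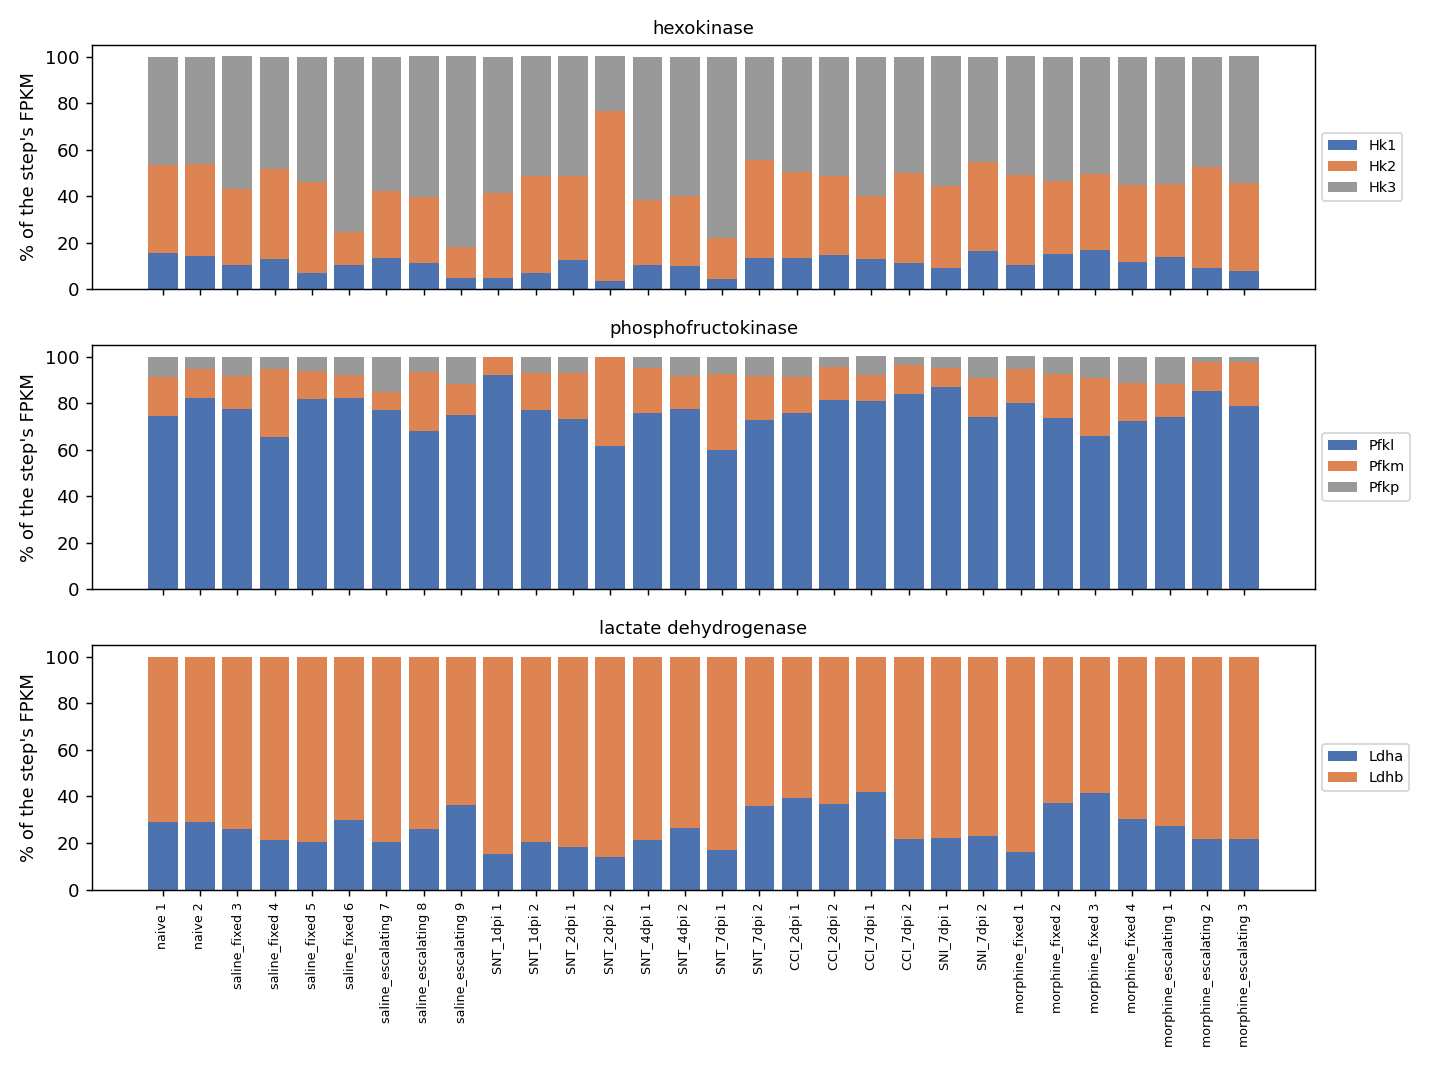
Share of each isoenzyme in the summed FPKM of its step (stacked bars, percent, axis from 0) for hexokinase, phosphofructokinase and lactate dehydrogenase in each of the 30 libraries, named by group and replicate. Pfkl is the main phosphofructokinase in every library, and Ldha stays under 42% of lactate dehydrogenase everywhere.

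Each injury group was compared with the 9 controls in 1 fit (limma on log2(FPKM + 1), two-sided, adjusted over all 11759 genes), to ask how microglial expression differs after nerve injury; the log2(FPKM + 1) scale understates changes of low genes. A gene was called at an adjusted p under 0.05. No member was called in any of the 7 groups. Over all genes the share called was 0.0170% at SNT 1 dpi, 0.00% at SNT 2 dpi, 0.00% at SNT 4 dpi, 0.204% at SNT 7 dpi, 0.00850% at CCI 2 dpi, 0.00% at CCI 7 dpi and 0.00% at SNI 7 dpi. With limma's unadjusted p under 0.05 the members numbered 4 at SNT 2 dpi, 2 at CCI 2 dpi and 0 in the other 5 groups, against 862 and 1263 of all genes. The other 5 groups had 1899, 275, 1044, 1146 and 478 such genes at SNT 1, 4 and 7 dpi, CCI 7 dpi and SNI 7 dpi. All 7 comparisons share the same 9 controls.

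At SNT 2 dpi 9 of the 10 members had lower values than controls, with a median log2 difference of -0.60 against -0.23 over all genes. Ldha differed by -0.85 ± 0.28 (SE; limma, adjusted p = 0.670) and Pkm by -1.24 ± 0.43 (adjusted p = 0.670). The 2 other members with an unadjusted p under 0.05 were Eno1, at -0.99 ± 0.36, and Pfkl, at -1.12 ± 0.46 (limma, adjusted p = 0.670 for both), and Hk2 was the 1 member with a positive difference, at 0.61 ± 0.46. Ldha was the only member with both libraries below all controls, a property of 1.91% of all genes. These differences came mainly from replicate 2, which has few detected genes and the highest Cst3, 95123 FPKM. Without it the members' median was -0.08 and Pkm differed by -0.09, and without replicate 1 Pkm, Ldha, Eno1 and Pfkl were called by limma, as were 1143 of the 11759 genes tested, with the lone library assumed to vary like the others. Neutrophil markers were at 3311 and 20979 FPKM in the 2 libraries. Microglial markers summed to 21414 FPKM in replicate 1 and 11592 in replicate 2, against 13755 to 21044 in the 9 controls. The part of either cell type in the result was not tested.

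At CCI 2 dpi 9 of 10 members had higher values than controls, with a median of 0.66 against 0.17 over all genes, and Tpi1 was the exception at -0.18 ± 0.38. Gapdh differed by 0.74 ± 0.27 (limma, adjusted p = 0.398) and Ldha by 0.63 ± 0.28 (adjusted p = 0.429). Both libraries lay above all 9 controls in 4 members, Gapdh, Eno1, Pkm and Ldha, and 8.66% of all genes lay above the controls in the same way. Both libraries belong to the low Cst3 set and 7 of the 9 controls to the high one. Against the 2 naive libraries alone, which are also in the low set, the median was 0.55, with 0.14 over all genes. Summed neutrophil markers were 3082 and 4637 FPKM, below the lowest control (5704), and 12 of the 12 tested markers had lower values; their part in the result was not tested.

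In the other injury groups the members' medians were nearer to 0. At SNT 1 dpi 5 members were higher and 5 lower, with a median of -0.11 against -0.25 over all genes, and the lowest p-values were those of Hk1 (-1.04 ± 0.53; limma, adjusted p = 0.333) and Pgk1 (-0.47 ± 0.34; adjusted p = 0.489). At SNT 4 dpi 8 of 10 were lower, with a median of -0.26 against 0.03, led by Gapdh (-0.36 ± 0.27) and Eno1 (-0.48 ± 0.36; limma, adjusted p = 1.00 for both). At SNT 7 dpi 9 of 10 were higher, with a median of 0.29 against 0.03, led by Gapdh (0.51 ± 0.27; limma, adjusted p = 0.598) and Ldha (0.43 ± 0.28; adjusted p = 0.675). That median was -0.08 without replicate 2, the library of the low Cst3 set. Each of the 12 tested neutrophil markers had a negative difference at SNT 1, 4 and 7 dpi, with medians of -2.0, -1.19 and -0.75, and 8 of them had an unadjusted p under 0.05 by limma at 1 dpi. All 7 tested monocyte markers had negative differences at 1 dpi, with a median of -2.55. At 7 dpi 8 of 9 neuron markers had positive differences, with a median of 0.48. The part of these cell types in the members' values was not tested. A test over the 4 days after SNT called no member and 0.00850% of all genes, and gave the lowest p to Ldha (unadjusted 0.0117; limma, adjusted p = 0.365) and Pkm (unadjusted 0.0435; adjusted p = 0.425).

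At CCI 7 dpi 8 of 10 members were higher, with a median of 0.42 against 0.17 over all genes, and at SNI 7 dpi 6 of 10, with a median of 0.14 against 0.01. Neutrophil markers had negative differences in 11 of 12 in both groups, with medians of -1.10 and -0.83, and monocyte markers in 7 of 7; their part in the result was not tested. Pgk1 at CCI 7 dpi differed by 0.49 ± 0.34 (limma, adjusted p = 0.675), and Hk2 at SNI 7 dpi by 0.52 ± 0.46 (adjusted p = 0.999). Tpi1 differed by -0.53 ± 0.38 in both groups (limma, adjusted p = 0.682 at CCI 7 dpi and 0.999 at SNI 7 dpi). Against the naive libraries alone the sign of Tpi1 turned in both, to 0.32. Its values were 64.2 and 37.7 FPKM at CCI 7 dpi and 41.1 and 58.8 at SNI 7 dpi, so 3 of the 4 lay above both naive libraries and 2 of the 4 below all saline ones.

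**Figure D3:**
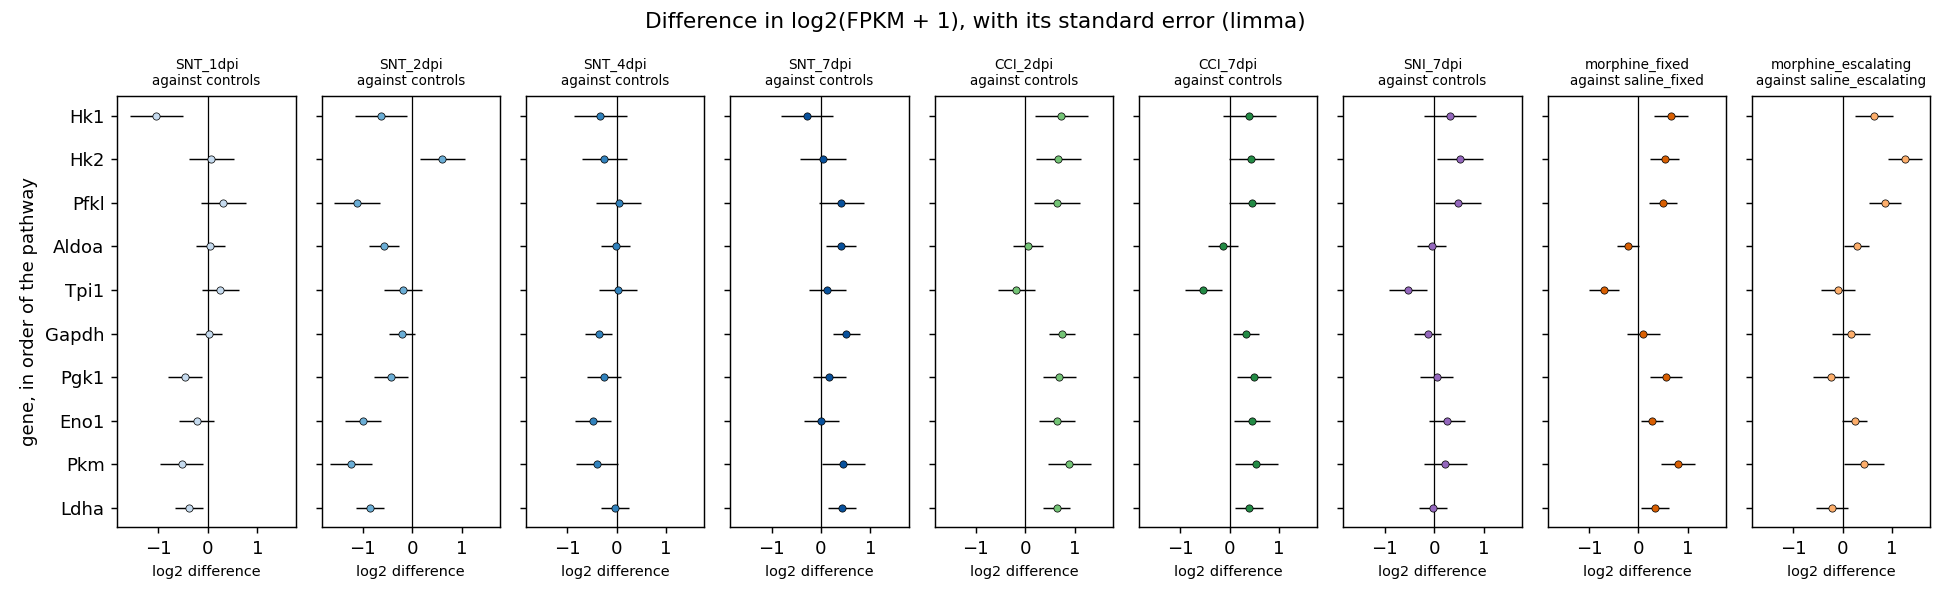
Difference in log2(FPKM + 1) of each member (points) with its standard error from limma (bars), for 7 injury groups against the 9 controls and 2 morphine groups against their own saline groups; the vertical line is no difference. Most points of SNT 2 dpi lie left of the line and most points of CCI 2 dpi right of it, while Tpi1 lies left of it in CCI 7 dpi, SNI 7 dpi and fixed morphine.

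The effect of each morphine schedule was read against the saline group of the same schedule. Fixed morphine against fixed saline called 18.0% of all genes (2119, of which 75.3% higher) and no member; 2 members and 4086 of all genes had an unadjusted p under 0.05 by limma. The members' median difference was 0.42 against 0.22 over all genes, with 8 of 10 positive. Tpi1 differed by -0.69 ± 0.30 (limma, adjusted p = 0.115) and Pkm by 0.80 ± 0.35 (adjusted p = 0.123). Which members passed changed with scaling. After rescaling each library to a common sum (TPM) Pkm (1.11; limma, adjusted p = 0.0336) and Pgk1 (0.87; adjusted p = 0.0450) were called, along with 3349 of all genes, and the median of all genes was 0.53, with 91.3% of calls higher. After median-ratio scaling Tpi1 was called (-0.91; limma, adjusted p = 0.0487), along with 1822 of all genes, and the median of all genes was 0.04, with 57.0% of calls higher. Quantile normalization called no member, with 55.1% of calls higher. Summed neutrophil markers were 1845 to 18972 FPKM under fixed morphine and 7400 to 28931 under fixed saline; all 12 had negative differences, and 2 of them were called (S100a8 and Camp). Markers of neurons had positive differences in 8 of 9, those of astrocytes in 7 of 8 and those of oligodendrocytes in 7 of 8, with none called. Of the 14 microglial markers 5 were called, Itgam, Trem2, Sall1, C1qa and Siglech, 2 of them higher and 3 lower, beside 18.0% of all genes. Their sums were 12293 to 15652 FPKM under fixed morphine and 17823 to 21044 under fixed saline, without overlap. Pf4 of the border macrophage list was called lower, with 5 of its 6 tested markers negative and 1 positive. Pecam1 of the endothelial and mural list was called lower, while of the 2 markers tested there 1 was negative and 1 positive. The part of these cell types in the result was not tested.

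All 4 fixed-morphine libraries belong to the low Cst3 set and all 4 fixed-saline libraries to the high one, so the drug and the set cannot be told apart in this comparison. The members themselves differed between the sets over all 30 libraries: the median of Pkm was 308 FPKM in the low set (170 to 437) and 154 in the high set (33.7 to 261). Hk1 had medians of 12.3 and 6.45 FPKM, Eno1 286 and 188, and Hk2 33.2 and 21.4, in the low and the high set. Tpi1 went the other way, with 52.3 FPKM in the low set (37.7 to 77.9) and 84.6 in the high set (51.1 to 121), while Gapdh (70.8 and 65.4) and Aldoa (216 and 243) had similar medians in both. A fit with the set as a term, which for this comparison rests on escalating-morphine replicate 1 as the only library to break the alignment, gave a median of -0.05 over the members, Pkm at -0.32 and Tpi1 at 0.29, with an adjusted p of 1.00 by limma for both.

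**Figure D4:**
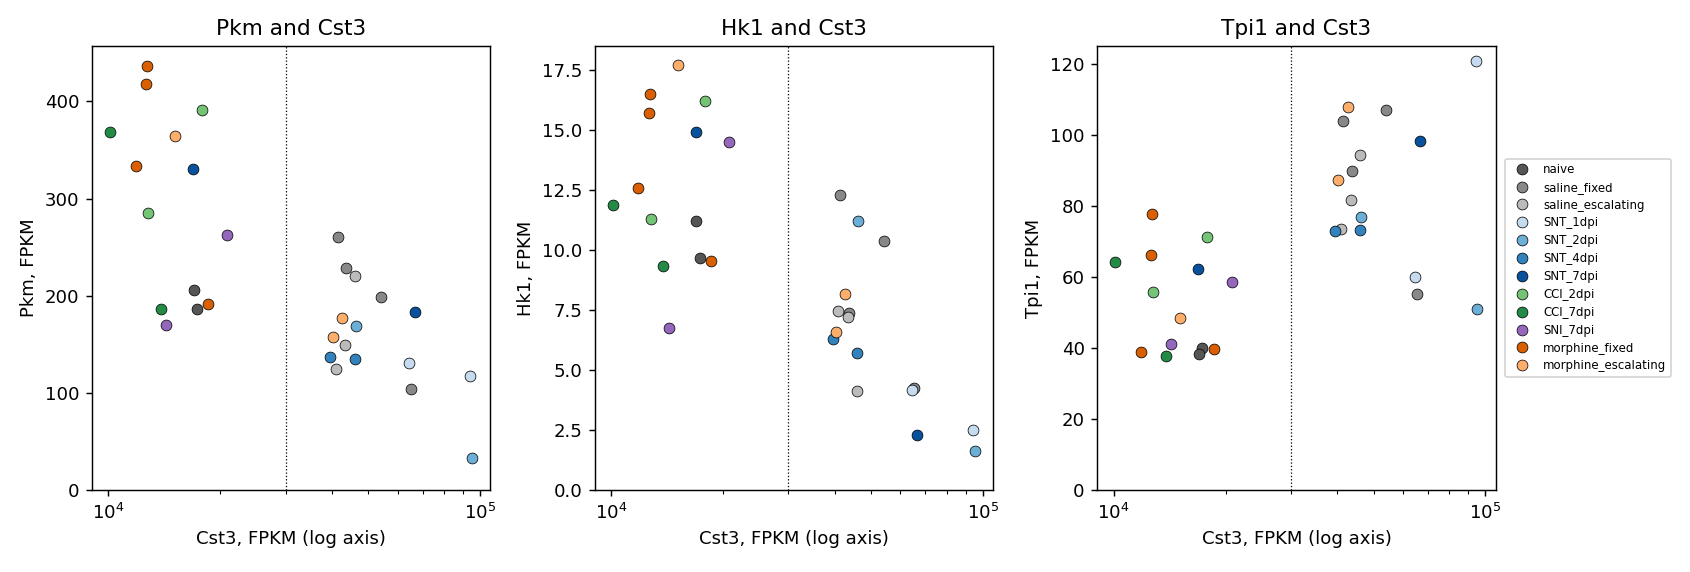
FPKM of Pkm, Hk1 and Tpi1 (vertical, linear from 0) against Cst3 (horizontal, log axis) in the 30 libraries, coloured by group, with a dotted line at 30000 FPKM of Cst3. No library lies near the line; Pkm and Hk1 are mostly higher left of it and Tpi1 mostly higher right of it, with all fixed-morphine libraries left and all saline libraries right.

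Escalating morphine against escalating saline called 0.0340% of all genes and no member, with 2 members and 2254 of all genes at an unadjusted p under 0.05 by limma. Hk2 differed by 1.26 ± 0.35 (limma, adjusted p = 0.106) and Pfkl by 0.86 ± 0.32 (adjusted p = 0.176). In both, each of the 3 morphine libraries lay above each of the 3 saline libraries, as in 13.3% of all genes. Replicates 2 and 3 of escalating morphine share the high Cst3 set with all 3 saline libraries, and with the set as a term Hk2 differed by 1.19 and Pfkl by 0.80. Summed neutrophil markers were 3410 to 13796 FPKM in the morphine group and 8140 to 63215 in the saline group; their part in the result was not tested. The members' median was 0.26 against 0.16 over all genes.

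Whether the schedules differed was tested directly, as the fixed response minus the escalating one. No member and 0.00850% of all genes were called (1377 genes and 0 members at an unadjusted p under 0.05 by limma), with 5 members positive, 5 negative and a median of -0.01. Pgk1 had the lowest p, at 0.80 ± 0.48 (limma, adjusted p = 0.540), and Hk2 the next, at -0.72 ± 0.46 (adjusted p = 0.566). The 3 kinds of control were compared in a fit of all 30 libraries, which called no member and 0.102% of all genes. Tpi1 had the lowest p among the members (unadjusted 0.0144; limma, adjusted p = 0.236), with the naive pair below every saline library, and Hk2 the next (adjusted p = 0.562). The naive pair is in the low Cst3 set and the saline libraries in the high one.

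Genes around the members were read from lists of the pathway's transporters, regulators, targets of hypoxia and neighbouring routes. These lists held 95 tested genes, each counted once. None was called in any comparison other than fixed morphine against fixed saline. At an unadjusted p under 0.05 by limma the count was 17, 13, 1 and 8 of 95 at SNT 1, 2, 4 and 7 dpi. The shares of all genes there were 16.1%, 7.33%, 2.34% and 8.88%. The count was 8 and 6 at CCI 2 and 7 dpi, against 10.7% and 9.75% of all genes. It was 3 at SNI 7 dpi, against 4.06%, and 15 under escalating morphine, against 19.2%. Fixed morphine against fixed saline called 15 of the 95 (15.8%), against 18.0% of all genes, so the lists as a whole were near the background of that comparison. Of 19 regulators 4 were called, all higher, a share that is also near 18.0%. They were Tigar (1.08 ± 0.23; limma, adjusted p = 0.00971), which lowers the activator of phosphofructokinase, Pdk1 (1.09 ± 0.25; adjusted p = 0.0125), which shuts the pyruvate dehydrogenase gate, Egln1 (2.18 ± 0.52; adjusted p = 0.0149), the oxygen-sensing hydroxylase of HIF-1, and Hif1an (1.13 ± 0.35; adjusted p = 0.0396), which also hydroxylates it. The median of the 19 was 0.40, against 0.22 over all genes.

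Egln1 was at 8.35, 7.88, 16.4 and 14.4 FPKM under fixed morphine and at 1.44, 2.36, 1.82 and 1.29 under fixed saline, without overlap. Pdk1 was at 36.2, 36.1, 32.6 and 30.2 FPKM against 22.9, 18.9, 9.81 and 12.5, and Tigar at 0.835, 2.03, 2.36 and 1.62 FPKM against 0.139, 0.455, 0.164 and 0.255. The naive libraries, which received no drug and belong to the low Cst3 set, had Egln1 at 9.27 and 6.41 FPKM, Pdk1 at 33.5 and 26.2, and Tigar at 0.813 and 1.41. They therefore lay above all 4 fixed-saline libraries in the 3 genes. Escalating-morphine replicate 1, of the low set, had Egln1 at 14.7 FPKM while replicates 2 and 3, of the high set, had 1.71 and 2.36. With the set as a term Egln1 differed by -0.20, Pdk1 by 0.41 and Tigar by 0.45 (limma, adjusted p = 1.00 for each).

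**Figure D5:**
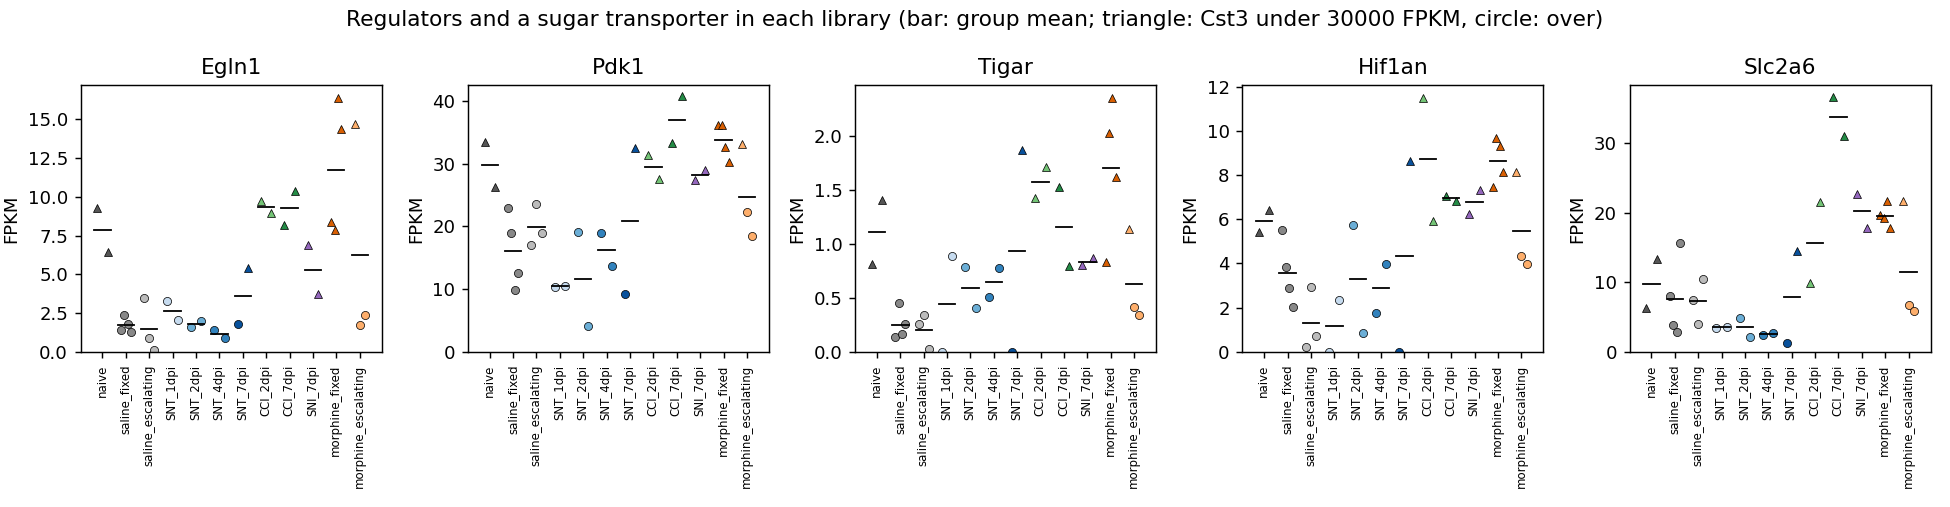
FPKM (linear from 0) of 4 regulators and the sugar transporter Slc2a6 in each of the 30 libraries; bars are group means, triangles are libraries with Cst3 under 30000 FPKM and circles those over it. In Egln1 and Pdk1 the fixed-morphine libraries lie above the fixed-saline ones, and the naive, CCI and SNI libraries, also triangles, lie there too.

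Of 9 genes for sugar and lactate transport, fixed morphine called Slc2a6, a hexose carrier of macrophages (1.49 ± 0.46; limma, adjusted p = 0.0384). It was at 19.6, 19.2, 21.7 and 17.8 FPKM against 8.07, 3.89, 2.91 and 15.6 under fixed saline, and with the set as a term it differed by -0.15. The list's most abundant genes were Bsg, the chaperone of lactate carriers, at 183 ± 34.4 FPKM over all libraries, and Slc2a5, the fructose carrier typical of microglia, at 110 ± 31.0. The glucose carriers Slc2a1 and Slc2a3 were at 13.8 ± 4.34 and 10.6 ± 9.77 FPKM. Of 14 other isoenzymes and steps, 1 was called, the testis form Ldhc (-0.65 ± 0.18; limma, adjusted p = 0.0298), at 1.16 FPKM or less in the libraries compared. The most abundant of that list were Ldhb (408 ± 93.4 FPKM), Gpi1, the isomerase after hexokinase (77.8 ± 26.0), Pgam1, the mutase before enolase (77.3 ± 20.5), and Hk3 (44.4 ± 13.4).

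Of 12 targets of hypoxia outside the pathway 3 were called higher and 1 lower under fixed morphine, beside 1595 higher and 524 lower of all genes, and 8 of the 12 had positive differences, as did 63.7% of all genes. Vegfa, an angiogenic growth factor, differed by 1.06 ± 0.30 (limma, adjusted p = 0.0298) but stayed under 2 FPKM in every library of the comparison. Kdm3a, a histone demethylase, differed by 0.78 ± 0.22 (limma, adjusted p = 0.0311), Mxi1, a repressor of the Myc network, by 1.31 ± 0.38 (adjusted p = 0.0314), and Ndrg1, a stress-responsive gene, by -1.35 ± 0.37 (adjusted p = 0.0250). Hif1an and Mxi1 are named because the called genes of their lists were few, after their values were seen.

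The routes that follow pyruvate gave 2 of 8 genes of its entry into mitochondria, both higher: Dld (0.94 ± 0.27; limma, adjusted p = 0.0322) and Dlat (0.90 ± 0.29; adjusted p = 0.0449), subunits of the pyruvate dehydrogenase complex. Of 16 genes of the tricarboxylic acid cycle, Ogdh (0.89 ± 0.25; limma, adjusted p = 0.0258) and Idh3a (1.00 ± 0.33; adjusted p = 0.0475) were higher and Idh3g (-1.11 ± 0.24; adjusted p = 0.0104) was lower, although Idh3a and Idh3g encode subunits of the same dehydrogenase. These counts too are to be read against the 18.0% called over all genes. Idh3g was at 40.1, 47.0, 54.2 and 39.1 FPKM under fixed morphine, 102, 97.2, 95.6 and 95.1 under fixed saline, and 50.1 and 52.0 in the naive libraries. None of 7 genes of the pentose phosphate pathway and none of 10 of gluconeogenesis and glycogen was called by limma. At an unadjusted p under 0.05 by limma the count was also 0 of each, against 34.7% of all genes. With the set as a term none of the 15 called genes was called.

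The calls on these 15 genes rest on few libraries. Tigar, Pdk1 and Idh3g kept theirs in each of the 8 fits that left out 1 library, with a highest limma adjusted p of 0.0383, 0.0443 and 0.0343, and Egln1 lost it without fixed-morphine replicate 3 (adjusted p = 0.0512). Leaving out fixed-morphine replicate 1, 2, 3 or 4 took the call from 4, 11, 12 and 5 of the 15 genes, and leaving out fixed-saline replicate 3, 4, 5 or 6 from 5, 6, 10 and 9. For the other 11 the highest adjusted p by limma lay between 0.0784 (Vegfa) and 0.151 (Idh3a).

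The members did not form 1 block across the libraries, and the correlations given next describe libraries that share depth and set, with no test. Of the 45 pairs, Eno1 and Pkm were closest (r = 0.92 on the log2 scale, n = 30), followed by Pgk1 and Ldha (0.88), Pkm and Ldha (0.85), Pkm and Pgk1 (0.85) and Hk1 and Pkm (0.83). The same pairs had r of 0.91, 0.89, 0.83, 0.86 and 0.80 within groups. Tpi1 stood apart from most members over all libraries, with r of -0.03 with Pkm, -0.25 with Hk1 and -0.35 with Hk2. It did not from Aldoa and Gapdh, with r of 0.48 and 0.41. Within groups Tpi1 had r of 0.35 with Pkm, 0.07 with Hk1 and -0.21 with Hk2. Within groups Tpi1 was positively correlated with each member but Hk2, most closely with Gapdh (0.76). Hk2 had r of -0.03 with Ldha and 0.06 with Gapdh. Of the promoters shown above, those of Pgk1, Ldha and Hk2 hold ACGTG. So does that of Gapdh, which had r of 0.70 with Ldha. A link between the motif and these correlations was not tested.

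Outside the members, the genes whose pattern was most like the members' mean were Rpn2, a subunit of the oligosaccharyl transferase (r = 0.91 over 30 libraries), Mfn2, a mitochondrial fusion protein, Dnajb11, a chaperone of the endoplasmic reticulum, Ppm1g, a phosphatase, and Samm50, part of the machinery of the outer mitochondrial membrane (0.90 each). Rpn2 ranged from 34.0 to 252 FPKM and Dnajb11 from 12.2 to 110. The pattern was shared with the number of detected genes. Over the 30 libraries 7 of the 10 members were correlated with that number at a permutation p, adjusted over the 10, under 0.05. The same correlation was not computed over all genes, so whether the members differ from other genes in it is unknown. Pearson's r was 0.83 for Hk1 (Spearman's rho 0.79; permutation p = 1.00e-05, the smallest that 100000 resamples can give; adjusted p = 0.000100), 0.68 for Pkm (rho 0.77; permutation p = 0.000190; adjusted p = 0.000950) and 0.64 for Eno1 (rho 0.77; permutation p = 0.000520; adjusted p = 0.00173). For Gapdh r was 0.09 (permutation p = 0.632) and for Tpi1 -0.35 (permutation p = 0.0606).

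Without the 2 libraries farthest from the median number of genes, 9 members passed, with r of 0.88 for Pkm and 0.86 for Eno1, and only Tpi1 did not (r = -0.06; permutation p = 0.749). Fewer members passed within the sets and the controls, which hold fewer libraries. In the 14 libraries of the low Cst3 set 4 members passed, Pfkl (r = 0.77, rho = 0.78), Pkm (r = 0.74, rho = 0.77), Hk1 (r = 0.62, rho = 0.69) and Eno1 (r = 0.62, rho = 0.63), with permutation p adjusted to 0.0138, 0.0183, 0.0482 and 0.0482. In the 16 of the high set only Hk1 did (r = 0.77, rho = 0.70; permutation p adjusted to 0.00670), and in the 9 controls none did (exact permutation test), with Eno1 highest at r = 0.79 (exact permutation p = 0.0111; adjusted p = 0.111).

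Some values carry a further limit from the gene models. RefSeq lists related genes or pseudogenes named after the member for Tpi1 (7), Gapdh (3), Ldha (3), Pgk1 (3) and Aldoa (2), and the near-identical Eno1b has 2 rows of its own in the table, at 23.5 to 100 FPKM and at 0.00 to 86.0. How fragments shared with such copies were assigned is not given in the sources used here, so the levels of these members are uncertain to that extent.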

How the data were processed

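FPKM values of 30 libraries of CD11b-selected cells were used as the authors deposited them, in 1 table. Per the submitters' processing notes the tools were HISAT2 2.0.5.1, Cufflinks 2.2.1, featureCounts 1.4.6 and DESeq2, with the build mm10; which of them made the FPKM values, and the annotation, are not given in the sources used here. No counts were used, so the depth per library is unknown and no counting interval is given.

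Rows with repeated symbols (826 rows of 281 symbols) were dropped, and genes with at least 1 FPKM in at least 2 libraries were kept (11759). Differences are limma 3.58.1 (limma-trend, R 4.3.3) contrasts on log2(FPKM + 1), two-sided, with Benjamini-Hochberg adjustment over all genes. Injury groups and controls shared 1 fit of 23 libraries, and morphine and saline groups another of 14. The script was tested on simulated data. Correlations used 100000 permutations (exact in the controls; scipy 1.17.1).

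The members and lists were chosen with earlier results of these data known. By the rule for named genes, differences are given for called members or else the 2 of lowest p in a comparison, and for at most 3 called genes per other list. Named beyond it, after their values were seen, were Eno1, Pfkl and Hk2 at SNT 2 dpi, Tpi1 at CCI 2 dpi, Hif1an and Mxi1. Alternatives were the pseudocount, the filter, scaling, array weights, the choice of controls, leaving out libraries, a replicate block and, chosen after seeing the data, the Cst3 set.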

Additional observations from a re-analysis of the deposited data

Results flagged for a closer look

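In 6 members every library of SNT 2 dpi lay on the other side of the control mean from every library of CCI 2 dpi. The share of all genes with this contrast was not counted. Over all genes the median difference was -0.23 at SNT 2 dpi (29.4% positive) and 0.17 at CCI 2 dpi (63.1% positive). The mean log2 differences from the 9 controls at SNT 2 dpi and CCI 2 dpi were -1.12 and 0.64 for Pfkl, -0.21 and 0.74 for Gapdh, and -0.43 and 0.69 for Pgk1. They were -0.99 and 0.64 for Eno1, -1.24 and 0.89 for Pkm, and -0.85 and 0.63 for Ldha. At 7 dpi Gapdh showed the same kind of contrast, at 0.51 after SNT and -0.13 after SNI. These differences between groups were not tested, they were found among 60 such checks, and both groups are set against the same controls. Both SNT 2 dpi libraries are in the high Cst3 set and both CCI 2 dpi libraries in the low one, so the injury and the set cannot be told apart here.

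Among the 9 controls, Pgk1 in escalating-saline replicate 9 stood far from the others, at 87.3 FPKM against 25.9 to 52.2, with a gap of 0.571 of the whole range, above Dixon's critical value for 9 libraries. Chance gives such a gap in about 1 of 20 groups, and 30 were looked at.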

How the results depend on the processing

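No member was called in the 12 comparisons as fitted, and few settings changed that. In fixed morphine against fixed saline 2 members were called after TPM rescaling (Pkm, Pgk1), 1 after median-ratio scaling (Tpi1) and 2 with array weights (Pkm, adjusted p = 0.0231, and Hk1, 0.0476, by limma), and array weights called 1, Tpi1, between kinds of control (limma, adjusted p = 0.0186). The causes were not tested. Over all genes that morphine comparison called 2119 genes as fitted, 3349 after TPM rescaling, 1822 after median-ratio scaling, 4348 with array weights, 757 to 2163 without 1 library (under 1000 without fixed-morphine replicate 2 or 3, 757 and 831, or fixed-saline replicate 5 or 6, 930 and 969), 4 with the Cst3 set as a term and 0 with the replicate block. In the other comparisons, where 0 to 24 genes were called as fitted, leaving out 1 library gave as many as 1221 at SNT 1 dpi (without replicate 2), 1143 at SNT 2 dpi (without replicate 1) and 1006 at SNT 7 dpi (without replicate 2), and array weights as many as 1068 at CCI 7 dpi and 1033 between kinds of control. In fixed morphine against fixed saline the block moved the members' median to 0.01 with 0 members called, and the set moved it to -0.05. The replicate numbers did not pair the libraries: correlations of deviations were -0.43 to 0.22 between the groups of 2, with 4 of 28 over 0.1, and -0.05 and -0.27 for the 2 numbers shared under the fixed schedule. Because only those 2 numbers occur in both fixed groups, the block fit leaves little to estimate the spread. No conclusion is drawn from its 0 calls. The escalating groups share no number, so no block could be fitted there.

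Without 1 library the count of members at SNT 2 dpi ran from 0 to 4 and over the SNT days from 0 to 2, in both cases highest without SNT 2 dpi replicate 1, where Pkm and Pfkl were called over the days among 546 of all genes, against 1 as fitted. Their median ran from -1.04 to -0.08 at SNT 2 dpi and from -0.08 to 0.58 at SNT 7 dpi, and was -0.08 at SNT 2 dpi without the 3 libraries of fewest detected genes. Tpi1 turned to 0.32 at CCI 7 dpi and SNI 7 dpi against naive controls alone or with the replicate block, and to 0.23 with the Cst3 set. Each saline replicate number occurs once in the injury fit, so the block also compares with the naive pair alone, and these settings are not independent. With the set Hk2 turned to -0.17 at SNI 7 dpi, and under fixed morphine Tpi1 turned to 0.29, Pkm to -0.32, Slc2a6 to -0.15, Egln1 to -0.20, Vegfa to -0.33 and Mxi1 to -0.02. Of the 7 members correlated with detected genes, 0 passed in the 9 controls, and the low and high Cst3 sets gave 4 and 1. Of all single-gene values, those just named included, direction and call were kept in 299 of 364 fits without 1 library and in 312 of 378 other settings. The 2 libraries per injury group and the unknown depth limit what could be detected.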
